A study of Homo sapiens with 12 samples.

Results

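The 47 genes described here encode the proteins that license replication origins, open them and copy DNA at the fork. They were listed by function, but with earlier results of these data known, so the list is not independent of the data. They were matched through Ensembl identifiers to 47 of the 54127 gene rows in the count tables. They were arranged in 11 complexes or steps: the origin recognition complex (ORC1 to ORC6), the licensing factors (CDC6, CDT1, GMNN), the MCM2-7 helicase, the DBF4-CDC7 kinase, the genes that assemble the active helicase (CDC45, GINS1 to GINS4, MCM10), the fork protection genes (TIMELESS, TIPIN, CLSPN, WDHD1), DNA polymerase α with primase, DNA polymerases δ and ε, PCNA with its loader RFC, the genes of Okazaki fragment maturation (FEN1, LIG1) and the single-strand binding complex RPA. C4-2 cells, an androgen-independent subline of the human prostate cancer line LNCaP, were grown in serum-containing medium and reverse-transfected with 50 nM of an siRNA pool against choline kinase alpha (siCHKA, n = 6) or with nontargeting siRNA (siNT, n = 6), and messenger RNA was sequenced. The study asked how depletion of this kinase, which makes phosphocholine in the Kennedy pathway, changes the transcriptome of prostate cancer cells. The study calls its replicates biological, with numbers that differ between its analyses, but the labels do not say whether those of a group were separate cultures, so p-values measure the spread between these samples, which may be technical. The labels also mention flow-sorted cells without naming a gate, and the time of harvest after transfection is not given in the sources used here.

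In human cells ORC marks origins, and in G1 phase CDC6 and CDT1 load the MCM2-7 ring onto DNA as a double hexamer, a step that geminin (GMNN) blocks by holding CDT1 once S phase has begun. The DBF4-CDC7 kinase then phosphorylates MCM2-7, and CDC45 and the GINS tetramer join it to form the CMG helicase, behind which DNA polymerase α-primase lays down primers and polymerases δ and ε extend them on the sliding clamp PCNA. Many of these genes are transcribed around the G1-to-S transition under E2F transcription factors, whose binding sites carry short GC-rich letters next to a run of T or A, so the letters are shown first and the RNA levels after them.

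The promoters of the replication genes often held such letters. A promoter was taken as the 250 bases before and 50 bases after each start in RefSeq (GRCh38.p14), which listed 52 promoters for 41 of the 47 genes. MCM4, MCM5, GINS4, POLD3, RPA2 and RPA3 had no entry. The words TTTCCCGC, TTTGGCGC, TTTCGCGC and TTTGCCGC were searched on both strands, and overlapping matches were counted separately. Of the 41 genes, 21 (51.2%; Wilson 95% interval 36.5 to 65.7) held at least 1 of them, against 701 of 10594 tested genes with a promoter (6.62%) and 1164 of all 35116 promoters (3.31%). Of the genes' own promoters 21 of 52 (40.4%) held one. Among those of the 41 genes with a single listed promoter the share was 16 of 32, against 5.48% of tested genes with a single promoter. The words are GC-rich, and these comparisons were not matched for GC content. The first base of each match lay between -187 and 8 bases from the annotated start. The windows below show 30 bases in the direction of transcription, with the letters of the search in capitals, for genes that differed widely in RNA change: CDC6, GINS1 and PCNA, which were among those that fell most, the helicase subunits MCM7, MCM2 and MCM6, and TIPIN, which fell little.
CDC6 (chr17:40287875-40287904, plus strand): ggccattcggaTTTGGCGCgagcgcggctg
GINS1 (chr20:25407667-25407696, plus strand): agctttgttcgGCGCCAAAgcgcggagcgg
PCNA (chr20:5126663-5126692, minus strand): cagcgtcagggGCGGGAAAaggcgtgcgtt
MCM7 (chr7:100101388-100101417, minus strand): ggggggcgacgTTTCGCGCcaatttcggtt
MCM2 (chr3:127598402-127598431, plus strand): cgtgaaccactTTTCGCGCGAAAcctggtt
MCM6 (chr2:135876515-135876544, minus strand): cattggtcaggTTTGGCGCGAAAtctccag
TIPIN (chr15:66356733-66356762, minus strand): ccccgcacggaTTTGGCGCCAAAcgctgcg

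In MCM2, MCM6 and TIPIN the capitals run over 12 letters because a match on one strand overlapped a match on the other. MCM6 held 4 matches, more than any other of these genes, in 2 such overlapping pairs, and its RNA fell least among the 6 helicase subunits. The next sequences show the 250 bases before the start of 2 ORC genes whose RNA moved in opposite directions, chosen after their values were seen. ORC1 held none of the 8-letter words, but 2 overlapping copies of their 7-letter core (the same words without the first T, on either strand), shown in capitals. ORC5 held no core.
ORC1 (chr1:52404424-52404673, minus strand): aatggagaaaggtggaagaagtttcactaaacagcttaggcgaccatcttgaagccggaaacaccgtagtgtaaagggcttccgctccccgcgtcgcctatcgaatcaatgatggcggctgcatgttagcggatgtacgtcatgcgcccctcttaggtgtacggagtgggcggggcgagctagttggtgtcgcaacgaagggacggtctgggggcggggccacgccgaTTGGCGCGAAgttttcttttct
ORC5 (chr7:104208014-104208263, minus strand): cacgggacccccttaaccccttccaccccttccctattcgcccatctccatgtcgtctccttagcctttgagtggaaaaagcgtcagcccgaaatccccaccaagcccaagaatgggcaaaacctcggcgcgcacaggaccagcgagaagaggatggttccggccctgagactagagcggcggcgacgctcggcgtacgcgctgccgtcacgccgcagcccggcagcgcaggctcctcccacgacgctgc

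The core was found in 30 of the 41 genes (73.2%), against 25.0% of tested genes. The classes of genes with and without these letters overlapped in their change. The median log2 fold change after siCHKA was -1.34 in the 21 genes with an 8-letter word (range -1.93 to -0.31), -1.15 in the 9 genes with the core alone and -1.01 in the 11 genes without it (range -2.23 to 0.33). MCM10, CDC45 and ORC6 fell without a core in the window, and so did FEN1, PRIM2, POLD1, DBF4, ORC2 and POLD2, while ORC4 and ORC5, the 2 genes that rose, also had none. The pentamer CCAAT, the core of NF-Y sites, was found in 24 of the 41 genes (58.5%, against 43.4% of tested genes). The letters TTTGAA of the cell cycle homology region, found in late cell cycle promoters and searched, like CCAAT, on both strands, were present in DBF4 only (2.44%, against 13.2%). These matches describe letters in a window and show no binding.

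The knockdown was present in every siCHKA sample. CHKA RNA was 2.75 CPM (counts scaled to library size by the TMM method) in the siCHKA group and 40.7 CPM in the siNT group, a log2 fold change of -3.88. Gene reads ranged from 12158361 to 20670479 in siCHKA samples and from 10685184 to 24246055 in siNT samples, so that 3 counts, the upper limit that a count of 0 allows, were worth 0.124 to 0.281 CPM. The least abundant member averaged 18.5 CPM in siNT cells, far above this limit, which covers counting error only. Within the siCHKA group, replicates 2, 4 and 6 resembled one another (chi-square per degree of freedom of 2.29 to 3.83 between pairs) and so did replicates 1, 3 and 5 (3.7 to 8.34), while pairs across these sets differed by 11.3 to 22. Pairs of siNT samples spanned 2.26 to 26.5. The cells carried their labelled identity: all 7 luminal prostate genes used here, among them KLK3, exceeded 1 CPM, and their summed level was 3345 to 4633 CPM in siCHKA and 4610 to 5994 CPM in siNT samples. KLK3 made up most of this sum, at a mean of 2220 CPM in siCHKA and 3252 CPM in siNT samples. Of the 7 genes 5 were lower after siCHKA, and 2 were higher, FOLH1 (log2 fold change 0.36) and KRT8 (0.51). HOXB13 (-0.16) and KRT18 (-0.12) changed least. Of 6 fibroblast markers only COL1A1 and PDGFRB exceeded 1 CPM (sums of 25.0 to 32.4 and 15.8 to 22.4 CPM), DCN, LUM, COL1A2 and COL3A1 being near 0. None of 6 leukocyte markers exceeded 1 CPM (sums of 0.242 to 0.644 and 0.373 to 0.784 CPM), and of 4 endothelial markers only VWF did (sums of 1.18 to 1.94 and 2.13 to 3.65 CPM). The part of these marker differences in the results was not tested.

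Knockdown of CHKA went with lower RNA of nearly the whole replication machinery. Of the 47 genes, all of which passed the expression filter, 45 were statistically significantly lower and 2, ORC4 and ORC5, were higher (edgeR quasi-likelihood test, Benjamini-Hochberg adjusted p below 0.05 over 14501 genes). In that comparison 30.1% of all tested genes were lower and 32.1% were higher. A fall of at least 2-fold was seen in 29 of the 47 genes, against 4.51% of tested genes, and the siCHKA level ranged from 21.3% of the siNT level in MCM10 to 126% in ORC4. In 42 genes every siCHKA sample lay below every siNT sample, as in 21.5% of tested genes. The median log2 fold change was -1.15 over the 47 genes and 0.04 over all tested genes. In these bulk samples, fewer cells in S phase and less RNA of each gene per cell cannot be told apart.

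The median fall was deep in CMG assembly and in the licensing factors, and smallest in RPA. By complex, the median log2 fold change was -1.71 for CMG assembly, -1.69 for the licensing factors, -1.40 for MCM2-7, -1.37 for fork protection, -1.22 for PCNA and RFC, -1.17 for Okazaki maturation and -1.13 for polymerase α-primase. It was -0.82 for the DBF4-CDC7 kinase, -0.80 for ORC, -0.51 for polymerases δ and ε and -0.28 for RPA. These medians rest on 2 to 6 genes each and were not tested against one another, and the licensing factors had the lower median in place of CMG assembly in 3 of 20 alternatives (-1.72 against -1.65 without siCHKA replicates 1, 3 and 5). The genes lie on 19 chromosomes.

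**Figure D1:**
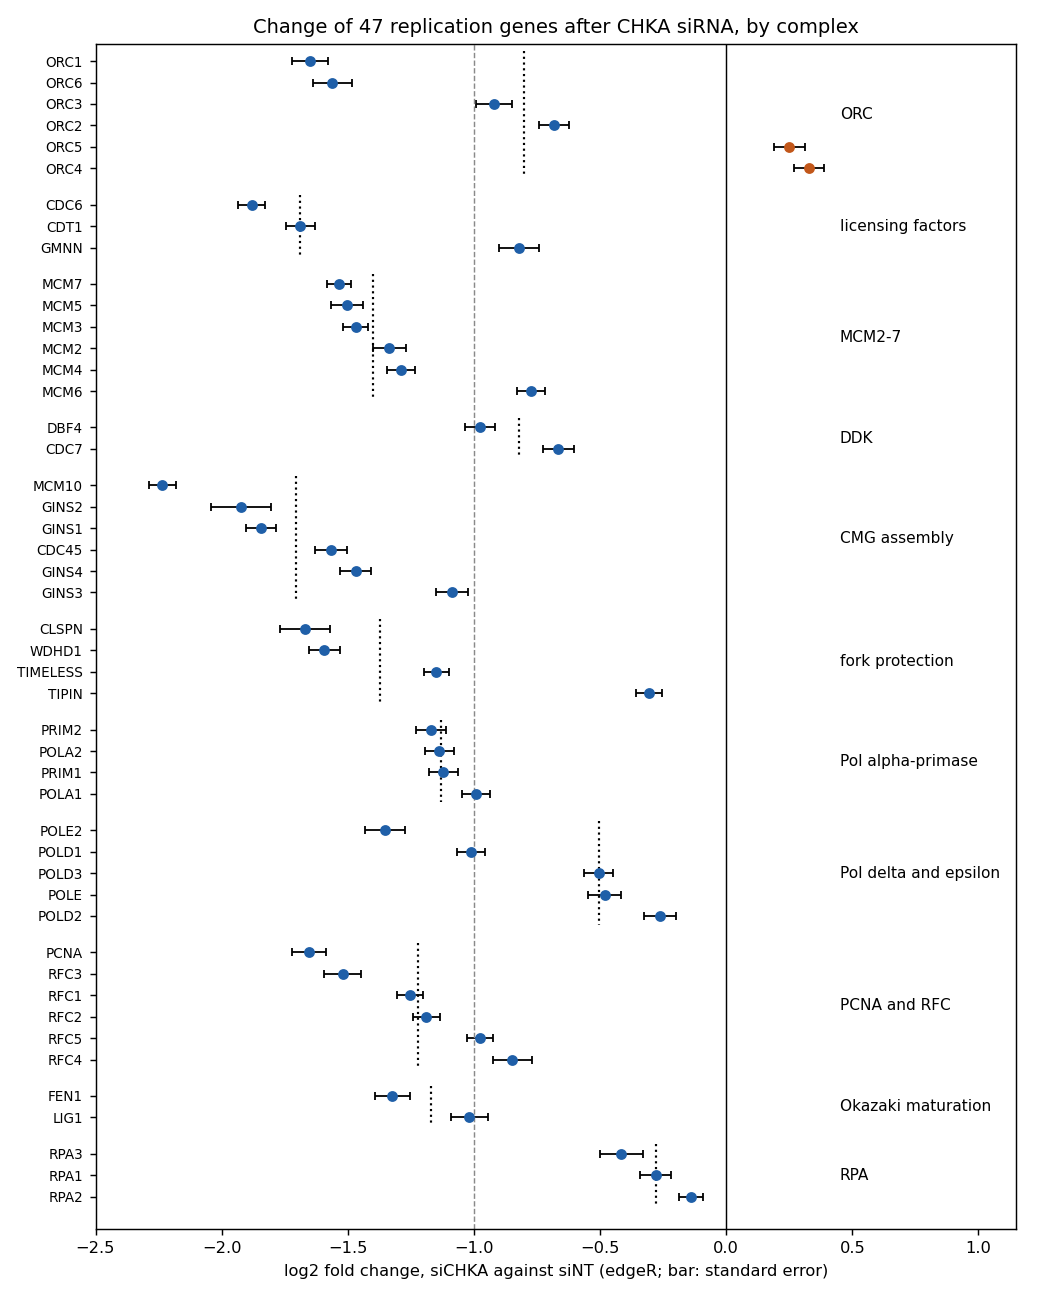
Log2 fold change of siCHKA against siNT from edgeR (horizontal axis) for each of the 47 genes, grouped by complex; points are estimates, bars are standard errors, dotted lines are medians of a complex and the dashed line marks a 2-fold fall. All points lie below 0 except ORC4 and ORC5, MCM10 is lowest at -2.23, and the 3 RPA genes lie between -0.42 and -0.14.

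The subunits of ORC did not move together. ORC1 and ORC6 fell the most, ORC2 and ORC3 fell less, and ORC4 and ORC5 rose. ORC1, the subunit whose protein level cycles in human cells, was at 37.2, 39.8 and 45.1 CPM (lowest, median and highest) in siNT and at 11.0, 13.0 and 14.2 CPM in siCHKA samples. The groups were well apart, with all siCHKA values below all siNT values. The log2 fold change of ORC1 was -1.65 (SE 0.07, adjusted p = 3.79e-12). ORC4, another ATPase-fold subunit of the same ring, went the other way, from 52.9, 58.3 and 68.7 CPM in siNT to 71.8, 74.0 and 80.5 CPM in siCHKA samples. The lowest siCHKA sample was above the highest siNT sample, by a smaller margin than in ORC1. Its log2 fold change was 0.33 (SE 0.06, adjusted p = 1.63e-04). Exons of ORC4 overlap those of ACVR2A and MBD5 on the opposite strand, and whether the counting used strand was not stated. ORC5 rose from 80.0 ± 7.71 to 95.1 ± 4.62 CPM (SD, n = 6), or by 0.25 on the log2 scale (adjusted p = 0.00177). Its groups overlapped slightly, since siNT replicate 1, at 91.3 CPM, exceeded siCHKA replicate 5, at 90.6 CPM. ORC6, the smallest subunit, fell from 44.8 to 15.2 CPM (log2 fold change -1.56), ORC3 from 18.5 to 9.72 CPM (-0.92) and ORC2 from 67.6 to 42.0 CPM (-0.68).

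Levels of different genes were compared per kilobase, once over the union of all exons and once over the canonical transcript, a length chosen after seeing the data. Both lengths gave the same highest and lowest ORC subunit in siNT cells, ORC5 at 21.5 ± 2.07 and ORC3 at 4.52 ± 0.371 CPM per kilobase of exon union (SD, n = 6; 41.6 and 7.42 per kilobase of canonical transcript). ORC4, at 6.71 ± 0.649 CPM per kilobase of exon union, stood above ORC3 alone under both lengths in siNT cells. After siCHKA it stood second to ORC5 under both, at 8.43 against 25.5 CPM per kilobase of exon union, with ORC2 next at 7.20.

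**Figure D2:**
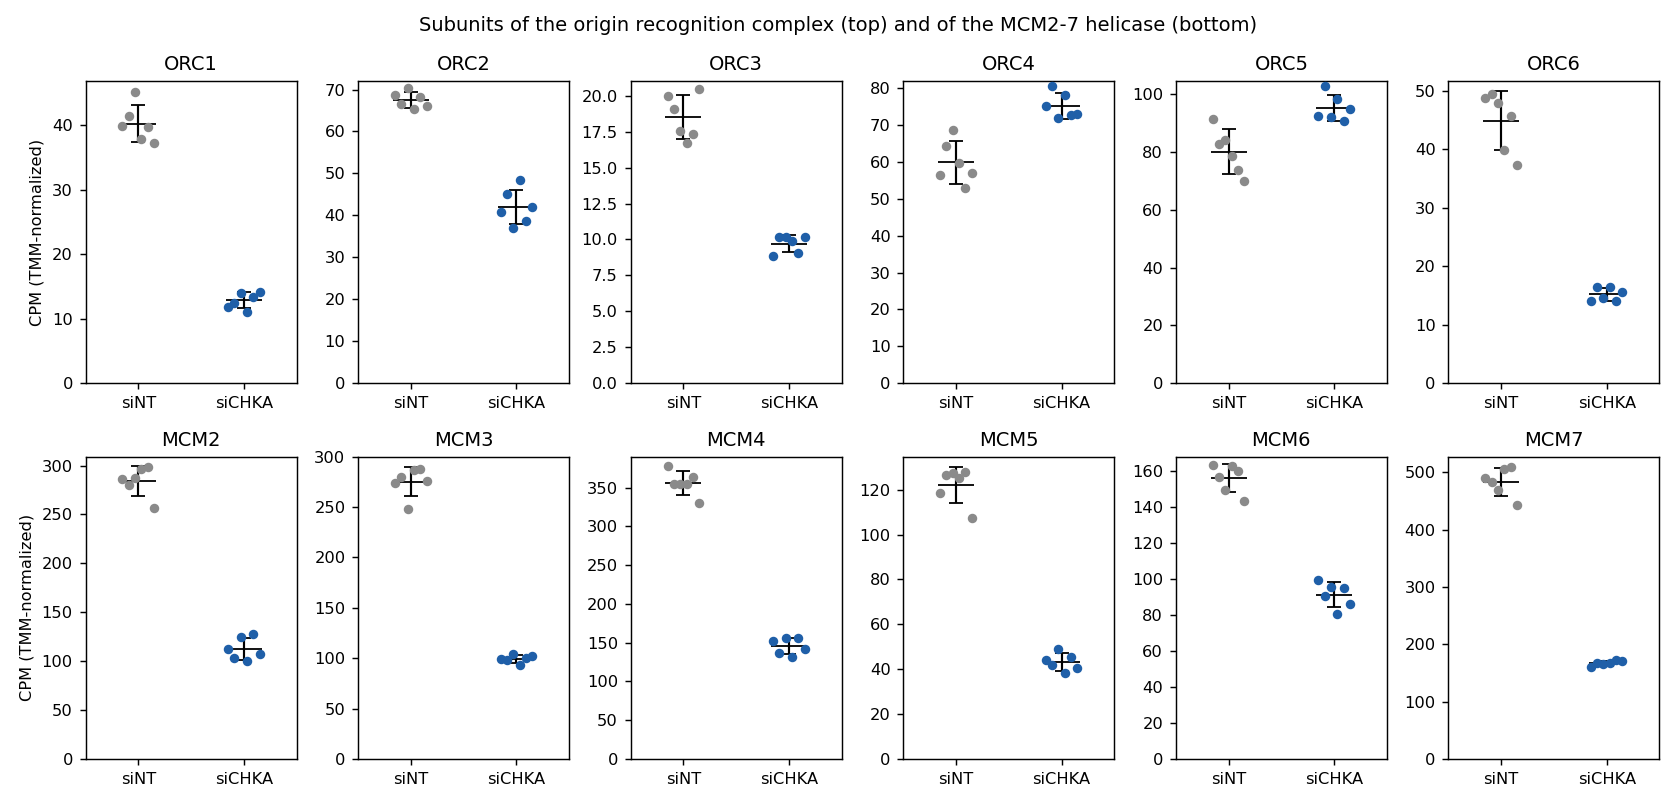
TMM-normalized CPM (vertical axes, each from 0) of the 6 ORC genes (top row) and the 6 MCM2-7 genes (bottom row) in the 6 siNT and 6 siCHKA samples; points are samples, and black bars are the mean and SD. ORC4 lies higher in every siCHKA sample, ORC5 overlaps slightly between groups, and the other 10 genes are lower in every siCHKA sample.

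All 3 licensing factors fell, the 2 loaders more than their inhibitor. CDC6, the ATPase that joins ORC to recruit MCM2-7, was at 184, 204 and 210 CPM (lowest, median and highest) in siNT and at 48.5, 55.0 and 60.1 CPM in siCHKA samples. The groups were far apart. The log2 fold change of CDC6 was -1.88 (SE 0.05, adjusted p = 4.10e-14). GMNN, which encodes geminin, was at 75.7, 95.3 and 106 CPM in siNT and at 46.6, 52.0 and 58.0 CPM in siCHKA samples. Its groups were apart but closer, and its log2 fold change was -0.82 (SE 0.08, adjusted p = 1.09e-07). CDT1, the partner of CDC6 in loading and the target of geminin, fell from 49.5 ± 2.58 to 15.4 ± 0.954 CPM (SD, n = 6; log2 fold change -1.69). The ratio of CDT1 to GMNN within each sample, on the log2 scale, was -1.03 to -0.71 in siNT and -2.03 to -1.54 in siCHKA samples, a difference of -0.87 (exact permutation test, two-sided, p = 0.00216, the smallest that 6 against 6 samples allow; adjusted p = 0.00469 over the 13 ratios of partner genes compared).

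The 6 genes of the MCM2-7 helicase all fell, 5 of them at least 2-fold. MCM7, a subunit of the ring, was at 443, 487 and 510 CPM (lowest, median and highest) in siNT and at 160, 167 and 172 CPM in siCHKA samples. Its siCHKA samples were tightly grouped. The log2 fold change of MCM7 was -1.53 (SE 0.05, adjusted p = 7.94e-14). MCM6 fell least of the ring, from 143, 158 and 163 CPM in siNT to 80.7, 92.5 and 99.5 CPM in siCHKA samples. Its groups still did not overlap, and its log2 fold change was -0.77 (SE 0.06, adjusted p = 3.09e-09). The remaining subunits lay between MCM7 and MCM6 in their change. MCM5 fell from 122 to 43.2 CPM (log2 fold change -1.50), MCM3 from 275 to 99.6 CPM (-1.47), MCM2 from 284 to 113 CPM (-1.34) and MCM4 from 356 to 146 CPM (-1.29). Per kilobase, MCM7 was the highest and MCM5 the lowest of the ring in both groups under both lengths, MCM7 at 97.5 ± 4.93 and MCM5 at 16.8 ± 1.09 CPM per kilobase of exon union in siNT cells (196 and 35.3 per kilobase of canonical transcript). Exons of MCM7 overlap those of AP4M1 on the opposite strand, and whether the counting used strand was not stated.

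Both subunits of the kinase that fires licensed origins fell by less than 2-fold. DBF4, the regulatory subunit, was at 91.1, 106 and 115 CPM (lowest, median and highest) in siNT and at 49.8, 52.5 and 56.0 CPM in siCHKA samples, and CDC7, the catalytic subunit, was at 93.3, 104 and 109 CPM and at 56.5, 64.4 and 71.8 CPM. Neither gene's groups overlapped. Log2 fold changes were -0.98 for DBF4 (SE 0.06, adjusted p = 2.85e-10) and -0.67 for CDC7 (SE 0.06, adjusted p = 8.43e-08), and the log2 ratio of DBF4 to CDC7 fell by 0.30 (exact permutation test, two-sided, p = 0.00433, adjusted p = 0.00625). In siCHKA samples the ratio was -0.19 to -0.11 in replicates 1, 3 and 5 and -0.46 to -0.38 in replicates 2, 4 and 6. It was -0.155 to 0.165 in siNT samples.

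The genes that turn the loaded ring into an active helicase all fell, each of the 6 by at least 2-fold. MCM10, an activator of the CMG helicase that does not belong to the MCM ring, had the largest fall of the 47 genes. It was at 102, 113 and 122 CPM (lowest, median and highest) in siNT and at 22.5, 23.8 and 25.6 CPM in siCHKA samples. The log2 fold change was -2.23 (SE 0.05, adjusted p = 1.04e-14), which left 21.3% of the siNT level. GINS3 fell least of this group, from 23.5, 25.7 and 28.0 CPM to 11.4, 12.2 and 13.3 CPM. Its log2 fold change was -1.09 (SE 0.06, adjusted p = 1.93e-10), again with no overlap. Its GINS partners fell further: GINS2 from 37.1 to 9.78 CPM (-1.92), GINS1 from 212 to 59.0 CPM (-1.85) and GINS4 from 51.5 to 18.6 CPM (-1.47). GINS2 was also the least even of the 47 genes among siNT samples, at 26.1 to 44.3 CPM, and had the largest SE, 0.12. The ratio of GINS2 to GINS3 fell by 0.82 on the log2 scale (exact permutation p = 0.00216, adjusted p = 0.00469). CDC45, the third component of the CMG helicase, fell from 78.7 ± 5.20 to 26.6 ± 2.14 CPM (SD, n = 6; log2 fold change -1.57).

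Among the genes that keep the fork together, CLSPN and TIPIN marked the ends of the range. CLSPN, which encodes the checkpoint adaptor claspin, was at 51.8, 54.1 and 70.3 CPM (lowest, median and highest) in siNT and at 15.1, 17.3 and 22.7 CPM in siCHKA samples. The groups were far apart although each was uneven. Its log2 fold change was -1.67 (SE 0.10, adjusted p = 1.88e-10). TIPIN, the obligate partner of TIMELESS, was at 36.6, 39.1 and 41.9 CPM in siNT and at 29.8, 32.0 and 32.9 CPM in siCHKA samples. Its groups did not overlap, but the change was small, with a log2 fold change of -0.31 (SE 0.05, adjusted p = 6.58e-05). TIMELESS itself fell from 202 to 91.0 CPM (log2 fold change -1.15), and WDHD1, which tethers polymerase α to the helicase, from 126 to 41.6 CPM (-1.59). Their log2 ratio, TIMELESS to TIPIN, was 2.24 to 2.55 in siNT and 1.48 to 1.58 in siCHKA samples, a difference of -0.85 (exact permutation p = 0.00216, adjusted p = 0.00469).

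All 4 genes of polymerase α-primase, which makes the primers, fell, and by similar amounts. PRIM2, the large primase subunit, was at 53.5, 55.7 and 63.7 CPM (lowest, median and highest) in siNT and at 22.9, 25.0 and 27.5 CPM in siCHKA samples, and had a log2 fold change of -1.17 (SE 0.06, adjusted p = 3.30e-11). POLA1, the catalytic subunit of polymerase α, was at 76.8, 80.7 and 88.9 CPM in siNT and at 37.2, 42.4 and 43.4 CPM in siCHKA samples, and had a log2 fold change of -0.99 (SE 0.06, adjusted p = 1.15e-10). Neither gene's groups overlapped, and these are the largest and smallest falls of the 4 genes. POLA2 fell from 52.1 to 23.7 CPM (-1.14) and PRIM1 from 70.0 to 32.2 CPM (-1.12). The log2 ratio of POLA1 to POLA2 was 0.65 ± 0.16 in siNT and 0.79 ± 0.09 in siCHKA samples (SD, n = 6; exact permutation p = 0.110, adjusted p = 0.131), and that of PRIM1 to PRIM2 was 0.31 ± 0.08 and 0.36 ± 0.14 (exact permutation p = 0.422), so unequal change was not detected in either pair.

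The replicative polymerases δ and ε changed unequally within each enzyme. POLE2, a noncatalytic subunit of polymerase ε, was at 25.2, 27.1 and 32.2 CPM (lowest, median and highest) in siNT and at 9.70, 11.0 and 12.1 CPM in siCHKA samples. Its log2 fold change was -1.35 (SE 0.08, adjusted p = 1.88e-10). POLE, the catalytic subunit, went only from 53.6 ± 5.59 to 38.4 ± 1.48 CPM (SD, n = 6; log2 fold change -0.48), and the log2 ratio of POLE to POLE2 was accordingly higher after siCHKA by 0.87 (exact permutation p = 0.00216, adjusted p = 0.00469). In polymerase δ the order was reversed, the catalytic subunit falling more. POLD1 went from 58.7 to 29.2 CPM (-1.01), whereas the accessory subunit POLD2 was at 239, 271 and 300 CPM in siNT and at 203, 222 and 253 CPM in siCHKA samples. The groups of POLD2 overlapped, and its log2 fold change was -0.26 (SE 0.06, adjusted p = 0.00180). The log2 ratio of POLD1 to POLD2 fell by 0.75 (exact permutation p = 0.00216, adjusted p = 0.00469). POLD3, a further accessory subunit, fell from 49.0 to 34.5 CPM (-0.51).

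The genes of PCNA and its loader all fell, 4 of 6 by at least 2-fold. PCNA, the sliding clamp, was at 349, 399 and 426 CPM (lowest, median and highest) in siNT and at 110, 125 and 136 CPM in siCHKA samples. The distance between the groups exceeded the whole range within either of them. Its log2 fold change was -1.65 (SE 0.07, adjusted p = 1.72e-12). Per kilobase PCNA was the highest of the 47 genes in siNT cells under both lengths, at 278 ± 23.5 CPM per kilobase of exon union and 306 ± 25.8 per kilobase of canonical transcript (SD, n = 6). RFC4 fell least, from 99.8, 125 and 137 CPM in siNT to 60.8, 68.2 and 75.9 CPM in siCHKA samples, with no overlap and a log2 fold change of -0.85 (SE 0.08, adjusted p = 5.36e-08). The other loader subunits lay between. RFC3 fell from 252 to 87.9 CPM (-1.52), RFC1, the large subunit, from 209 to 87.7 CPM (-1.25), RFC2 from 94.4 to 41.4 CPM (-1.19) and RFC5 from 68.7 to 35.0 CPM (-0.98). Within samples, RFC1 relative to RFC4 fell by 0.40 on the log2 scale (exact permutation p = 0.00433, adjusted p = 0.00625). The groups overlapped slightly, since siCHKA samples were at 0.17 to 0.54. Replicates 1, 2 and 3 of siNT were at 0.54 to 0.57, and its replicates 4, 5 and 6 at 0.88 to 1.09. PCNA has 3 annotated pseudogenes, and reads that matched more than 1 place were not counted.

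The genes that finish lagging-strand fragments both fell. FEN1, the flap endonuclease, was at 75.3, 88.5 and 93.2 CPM (lowest, median and highest) in siNT and at 30.9, 35.1 and 39.5 CPM in siCHKA samples, and LIG1, the ligase, was at 24.8, 28.6 and 30.5 CPM and at 12.6, 13.8 and 15.6 CPM. In both genes the highest siCHKA sample was far below the lowest siNT sample. Log2 fold changes were -1.32 for FEN1 (SE 0.07, adjusted p = 3.36e-11) and -1.02 for LIG1 (SE 0.07, adjusted p = 2.47e-09), and the log2 ratio of LIG1 to FEN1 was 0.31 higher after siCHKA (exact permutation p = 0.0152, adjusted p = 0.0197).

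RPA, the single-strand binding complex that also serves in DNA repair, changed least. RPA3, the smallest subunit, was at 67.8, 82.6 and 99.5 CPM (lowest, median and highest) in siNT and at 55.8, 57.8 and 70.8 CPM in siCHKA samples, and RPA2, the middle subunit, was at 90.0, 93.2 and 100 CPM and at 79.0, 84.9 and 92.7 CPM. The groups of both genes overlapped. Log2 fold changes were -0.42 for RPA3 (SE 0.09, adjusted p = 4.93e-04) and -0.14 for RPA2 (SE 0.05, adjusted p = 0.0179). The call of RPA2 was lost without siCHKA replicates 1, 3 and 5 (-0.12, adjusted p = 0.0780) and with 1 count file per sample (-0.07, adjusted p = 0.342). RPA1, the large subunit that holds most of the DNA-binding surface, fell from 361 to 298 CPM (-0.28) without overlap. The log2 ratio of RPA1 to RPA2 was 1.94 ± 0.14 in siNT and 1.80 ± 0.16 in siCHKA samples (SD, n = 6; exact permutation p = 0.139, adjusted p = 0.150).

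The inequality within complexes was thus measured in 13 ratios of partner genes, of which 10 differed between the groups at an adjusted p-value below 0.05 and 6 without overlap. The other 2 such ratios were in ORC and MCM2-7. The log2 ratio of ORC1 to ORC3 was 0.86 to 1.36 in siNT and 0.15 to 0.56 in siCHKA samples, a difference of -0.72 (exact permutation p = 0.00216, adjusted p = 0.00469). The log2 ratio of MCM2 to MCM7 was 0.19 higher after siCHKA (exact permutation p = 0.00433, adjusted p = 0.00625), with overlapping groups. Most of this difference lay in siCHKA replicates 1, 3 and 5, at -0.50 to -0.41. Replicates 2, 4 and 6 were at -0.74 to -0.66, near the siNT samples at -0.79 to -0.71. The pairs were chosen as biochemical partners. How often other pairs of genes differ in this way was not measured, so the count of 10 cannot be read as particular to partners. A ratio shows unequal change and not which partner changed.

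**Figure D3:**
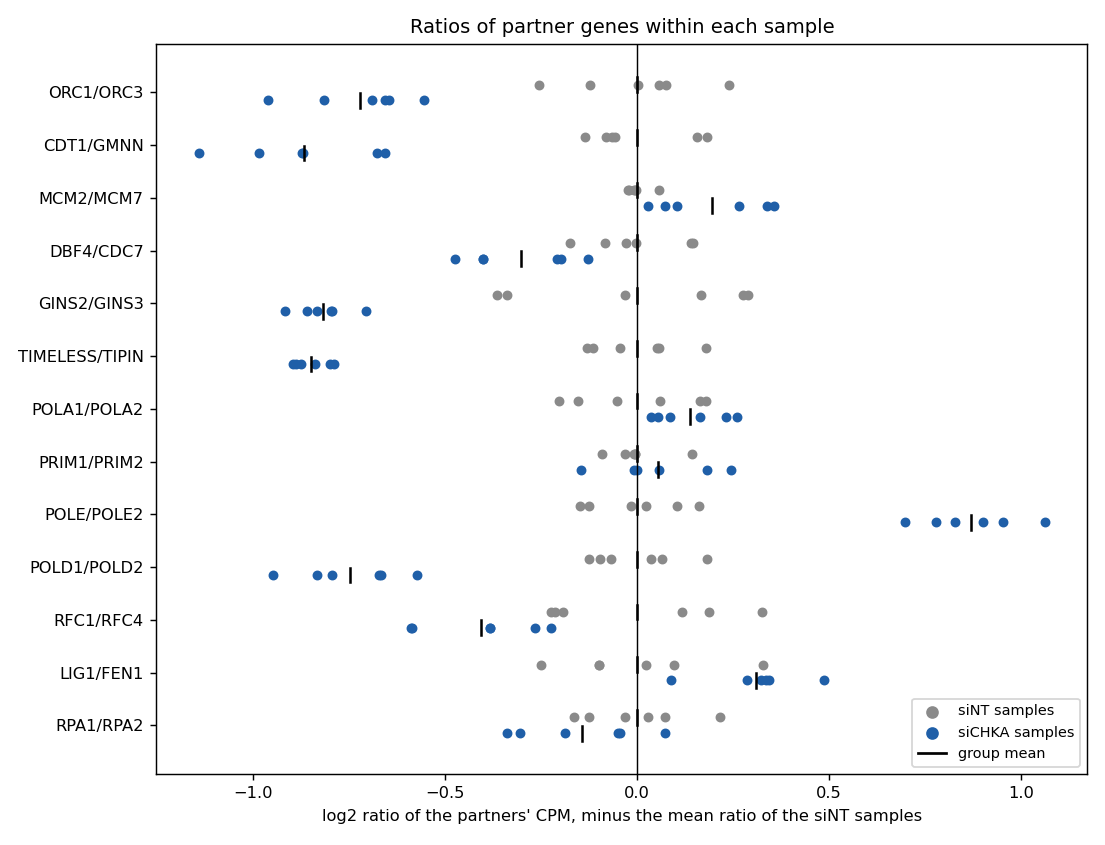
Log2 ratio of 13 pairs of partner genes in each sample, minus the mean ratio of the siNT samples (horizontal axis), for siNT (grey) and siCHKA (blue) samples; black ticks are group means. POLE/POLE2 moves furthest to the right (0.87), CDT1/GMNN and TIMELESS/TIPIN furthest to the left (-0.87 and -0.85), and in 7 pairs the groups overlap (MCM2/MCM7, DBF4/CDC7, POLA1/POLA2, PRIM1/PRIM2, RFC1/RFC4, LIG1/FEN1 and RPA1/RPA2).

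Sample by sample, the fall of the 47 genes was even. Relative to the mean of the siNT samples, the median of the 47 genes on the log2 scale was between -1.17 and -1.09 in the siCHKA samples and between -0.11 and 0.06 in the siNT samples. The 2 sets of siCHKA samples named above were close in this median, at -1.17 to -1.09 in replicates 1, 3 and 5 and -1.17 to -1.12 in replicates 2, 4 and 6, but not in every complex. ORC was lower in replicates 1, 3 and 5, with medians of -0.91 to -0.86 against -0.77 to -0.68. MCM2-7 was lower in replicates 2, 4 and 6, with medians of -1.52 to -1.41 against -1.40 to -1.25. PCNA and RFC was slightly lower there too, with medians of -1.28 to -1.21 against -1.20 to -1.18. In 5 of its 6 genes the sets did not overlap, 3 being lower and 2 higher in replicates 1, 3 and 5. Of the 47 genes, 20 (42.6%) had a lower mean in replicates 1, 3 and 5, against 51.3% of tested genes. In 21 genes (44.7%) the sets did not overlap, close to the 47.5% of all tested genes. RFC3, for example, was at 75.1 to 81.3 CPM in replicates 1, 3 and 5 and at 93.5 to 99.8 CPM in replicates 2, 4 and 6, and RPA1 at 314 to 326 and 265 to 282 CPM. With either set left out, 44 genes were lower without replicates 1, 3 and 5, when RPA2 was no longer called, and 45 without replicates 2, 4 and 6, and ORC4 and ORC5 were higher in both fits.

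**Figure D4:**
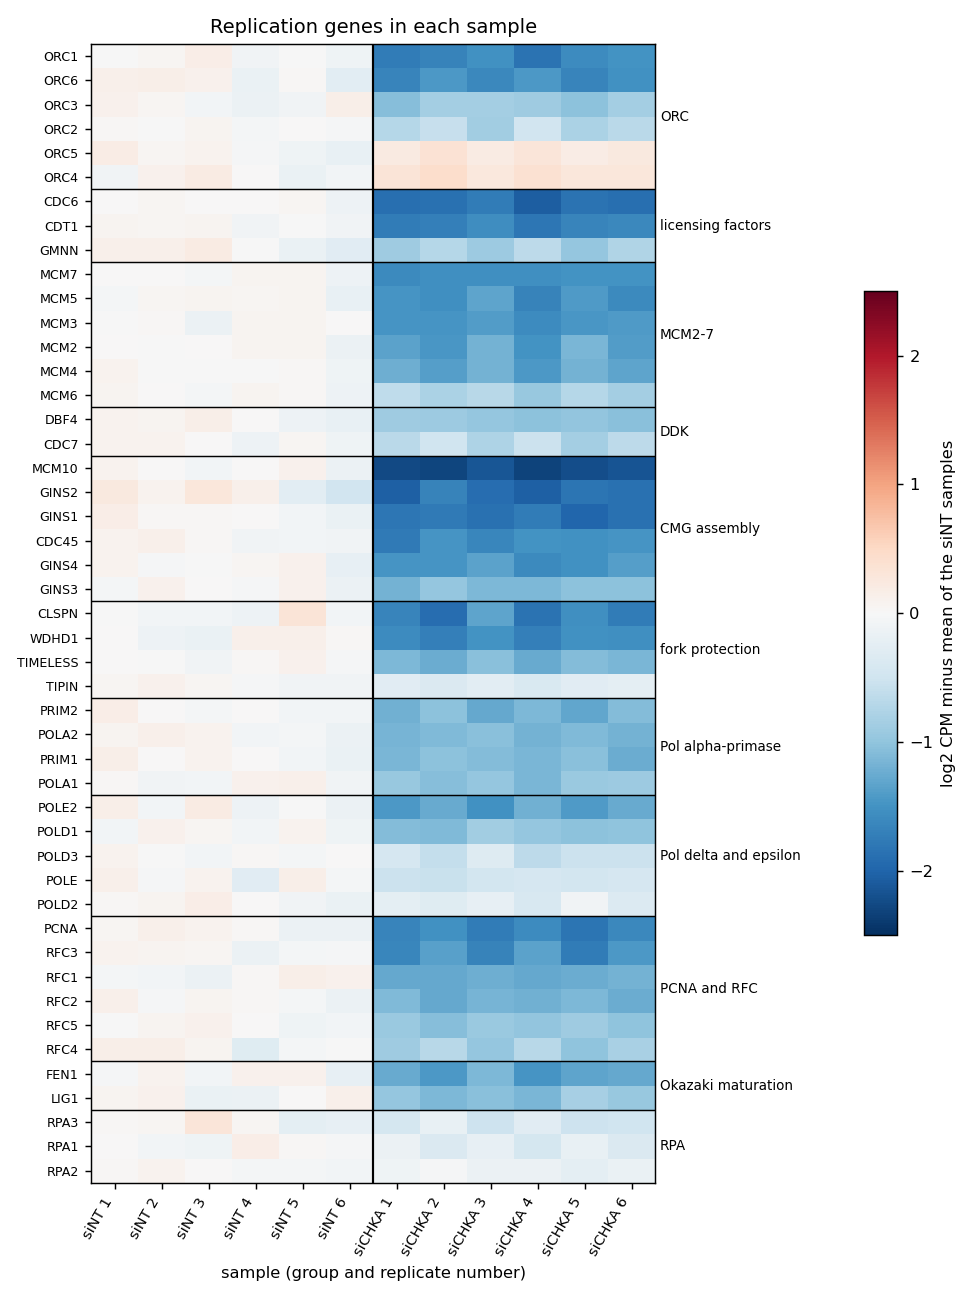
Log2 CPM of each of the 47 genes (rows, by complex) in the 12 samples (columns), minus the mean of the siNT samples; blue is lower and red higher. The siCHKA columns are blue in nearly every row, with per-sample medians of -1.17 to -1.09, palest in RPA, TIPIN and POLD2, and red in ORC4 and ORC5.

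The fall extended to other replication genes. Of 42 further genes of replication and its control, 36 (85.7%) were lower and 5 (11.9%) were higher. The remaining gene (ETAA1, log2 fold change -0.08, adjusted p = 0.230) did not pass the test. Of all tested genes, 30.1% were lower and 32.1% higher. At least 2-fold falls were seen in 20 of the 42 genes, against 4.51% of tested genes, and their median log2 fold change was -0.98. The smallest p-values among the lower genes were those of DTL, a substrate receptor of the ubiquitin ligase that removes CDT1 in S phase (-1.88), ASF1B, a histone chaperone (-1.60), TOP2A, the type II topoisomerase (-1.51), and CHAF1A, a subunit of the chromatin assembly factor CAF-1 (-1.54). CCNE1, which encodes cyclin E1, a partner of CDK2 at S-phase entry, was higher in every siCHKA sample, at 20.4 to 27.1 CPM against 11.7 to 15.6 CPM (log2 fold change 0.69, adjusted p = 2.32e-06). CCNE2, its paralog, was lower, from 36.7 to 17.0 CPM (-1.11). The next higher genes were LRWD1, an ORC-associated protein (0.34), POLD4, the smallest polymerase δ subunit (0.30), and MCM9, a helicase paralog used in repair (0.19). The fifth was POLE4, a small polymerase ε subunit (0.14). Of the 5 higher genes only CCNE1 had groups that did not overlap. Adjusted p-values of the others ran from 0.00194 (LRWD1) to 0.0414 (POLE4) in the edgeR test. POLD4 averaged only 4.50 CPM in siNT and 5.53 CPM in siCHKA samples.

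The 3′ UTRs were read for GCCAGAT and TGCCCTT, words which an earlier reading of these data had linked to a fall across genes, so that their count here is a description and no independent evidence. In the longest coding transcript, 7 of the 46 replication genes examined held at least 1 copy (15.2%), against 25.1% of 12249 tested genes. POLD1 was not examined. The 7 genes were MCM10, CDC6, GINS1, CDT1, CLSPN, WDHD1 and RFC3, all of them among the 13 genes with the largest falls. The limit of 13 was taken from these values, being the rank of RFC3, which fell least of the 7. Their log2 fold changes ran from -2.23 to -1.52 with a median of -1.69, against a median of -1.09 in the 39 genes without a word. Their 3′ UTRs were also longer, with a median of 2541 against 767 bases. Across tested genes the medians were -0.11 with a word and 0.03 without. Leaving out the 7 genes, an alternative added after seeing the data, left 38 of 40 genes lower with a median of -1.05.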

How the data were processed

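C4-2 cells treated with siCHKA or siNT (6 samples each, grouped by title) were analyzed. Per the labels and the study's methods, the authors mapped 40-base single-end reads with TopHat2 2.0.4 (GRCh37), counted them on Ensembl genes with HTSeq 0.5.3p9 and deposited raw counts, 4 files per sample, which differed by no more than counting noise (chi-square over its degrees of freedom, 0.986 to 1.01) and were summed. DESeq 1.10.1 was the authors' own test. Rows that name no gene were left out: reads without a feature made up 3.95% to 5.97% and ambiguous reads 2.82% to 2.93%, while alignments that were not unique came to 26.1% to 30.6%. GENCODE release 44 gave symbols for Ensembl identifiers (44824 of 54127 rows matched, 82.8%), and printed coordinates are GRCh38. Of the 47 genes, 17 share exons with another gene, among them ORC4, TIPIN, RFC4 and RPA3, and 10 have named pseudogenes. The library kit and counting were not stated to use strand, and genes of both kinds are measured less surely.

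Counts were analyzed in R 4.3.3 with edgeR 4.0.16 (filterByExpr, TMM, quasi-likelihood test between the groups with no covariate, Benjamini-Hochberg adjustment over 14501 genes, adjusted p below 0.05). Log2 CPM used a prior count of 2. Standard errors were derived from the F statistics. Partner ratios were differences of log2 CPM, tested over all 924 assignments of samples. The fit was tested on simulated data. In each complex the genes with the lowest and highest log2 fold change are given in full, and of the other replication genes up to 4 in each direction with the smallest p. CCNE2, ETAA1, POLE4, RFC3 and RPA1 are named or detailed beyond that rule, after their values were seen. The members and lists were chosen with earlier results of these data known. Alternatives were DESeq2 1.42.0, RLE normalization, a minimum of 10 counts in each sample, no filter, another prior count (0.5) for ratios, the replicate number as a block, each replicate or set of siCHKA replicates left out and 1 count file per sample. Promoters came from RefSeq (GRCh38.p14). Python 3.11.15 with pandas 2.3.3, numpy 2.4.6, scipy 1.17.1 and matplotlib 3.10.9 was used for the rest. Some marker genes of the original list are not reported here.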

Additional observations from a re-analysis of the deposited data

Results flagged for a closer look

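In 4 of the 94 groups examined (47 genes in 2 groups of 6), 1 sample stood further from the others than Dixon's limit for 6 samples, the limit being set on the gap divided by the range of log2 CPM. Chance gives about 1 in 20, or 4.7 of 94. CDC6 was at 184 CPM in siNT replicate 6 and at 202 to 210 CPM in the other siNT samples (0.705). MCM3 was at 248 CPM in siNT replicate 3 and at 274 to 288 CPM in the others (0.657). CLSPN was at 70.3 CPM in siNT replicate 5 and at 51.8 to 56.4 CPM in the others (0.722). PRIM2 was at 63.7 CPM in siNT replicate 1 and at 53.5 to 56.8 CPM in the others (0.659). All of these were siNT samples.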

How the results depend on the processing

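The counts of 45 lower and 2 higher genes were the same under DESeq2, RLE normalization, a minimum of 10 counts in each sample, no filter and each of 12 single samples left out. With the replicate block, 45 were lower and 2 higher, and over all tested genes 4273 were lower and 4494 higher. Same-numbered samples did not deviate together (correlations of -0.396 to 0.321, over 0.1 in 2 of 6 pairings), so the numbers were not taken as pairing the samples. Over all alternatives that used every replication gene, the median of the 47 genes lay between -1.18 and -1.12, and it moved to -1.05 without the 7 genes that hold a 3′ UTR word. The median of polymerases δ and ε moved to -0.60 without siCHKA replicates 1, 3 and 5, that of RPA to -0.18 without siCHKA replicates 2, 4 and 6, and that of polymerase α-primase to -1.05 with 1 count file per sample. The cause was not tested. Genes with promoter letters numbered 30 with the 7-letter core, which is shorter than the 8-letter word and so is found more often. Log2 fold changes of single named genes kept their direction and their call except for RPA2. All 13 partner ratios kept theirs in 14 alternatives each, namely RLE normalization, a prior count of 0.5 and each of 12 single samples left out. The ratios were not recomputed with either set of siCHKA replicates left out, so their dependence on these sets was not tested. The median of all tested genes was at most 0.09. With 1 file per sample, 11994 genes passed the filter. RPA2, the smallest change, was no longer called with 1 count file per sample, where its log2 fold change was -0.07 against -0.14 in the main fit. It was also not called without siCHKA replicates 1, 3 and 5, and the part of depth was not tested.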
